A study of Mus musculus with 8 samples.

Results

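The genes described here are 10 genes of calcium handling in the sarcoplasmic reticulum and at the dyad of heart muscle: Cacna1c, Ryr2, Trdn, Casq2, Hrc, Atp2a2, Pln, Slc8a1, Jph2 and Camk2d. They were taken by name from a list of known calcium-handling genes that names no measured value, drawn up with earlier results of these data known, and all 10 were found among the 13227 genes listed for every library. The hearts came from adult FVB/N mice, all labelled male and 3 months old. One group of 4 is labelled non-transgenic (hearts A, B, D, E) and the other group of 4 FASTKD1 transgenic (hearts A, B, C, E), with an overexpression that the series title calls cardiac-specific. Neither the promoter of the transgene nor the number of founder lines is stated in the labels. Total RNA of homogenised hearts was sequenced, and the comparison asks how overexpression of FASTKD1, a mitochondrial protein of the FASTK family, bears on gene expression in the heart.

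In a heart muscle cell, an action potential opens the L-type calcium channel in the transverse tubule, and the calcium that enters opens ryanodine receptors in the facing membrane of the sarcoplasmic reticulum. This narrow junction is the dyad. The released calcium starts contraction, and relaxation follows as the SERCA2 pump returns calcium to the reticulum and the sodium-calcium exchanger moves the rest out of the cell.

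Of the 10 genes, Hrc fell in transgenic hearts and the other 9 did not pass the test (edgeR adjusted p under 0.05). Over all 13226 genes tested, 1.25% passed in either direction, 1.01% as higher and 0.242% as lower. The groups did not overlap for 4 of the 10 genes, with Hrc, Pln and Atp2a2 lower and Slc8a1 higher in all 4 transgenic hearts, where 2.8% of all tested genes were lower and 4.58% higher without overlap, 7.38% in all. The median log2 fold change of the 10 genes was -0.16 beside 0.01 over all genes tested, and 8 of the 10 had a value below 0, as did 6455 of all 13226 genes. At an unadjusted edgeR p under 0.05, 3 of the 10 were lower and 1 higher, where 5.38% of all tested genes were lower and 5.37% higher, 10.7% in all. DESeq2 called Hrc, Pln and Atp2a2 lower and none of the 10 higher, where it called 1.2% of all genes lower and 1.88% higher. In limma-voom Hrc alone of the 10 passed, where 1.26% of all genes did, 0.242% as lower and 1.02% as higher.

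Total counts per library ran from 44584359 to 55769859, and the 10 genes had between 8209 and 690267 counts in each library, so counting error was small beside the spread between hearts. Fastkd1 stood at 8845 to 11516 counts per 1000000 (CPM, from library sizes scaled with TMM) in the transgenic hearts and at 26.3 to 33.8 CPM in 3 of the 4 non-transgenic hearts. Non-transgenic heart D had 192 CPM of Fastkd1 and, although labelled male, 0 counts of 4 Y-linked genes, where the other libraries had 10372 to 15914. Its labels are therefore in doubt, and whether the heart was female, exchanged or mixed with RNA of another sample was not tested. Without heart D, Hrc also passed (edgeR adjusted p = 0.0253) and no other of the 10 genes did. Defining cardiomyocyte markers were high in every library, and markers of atrial tissue reached a summed 3160 CPM in transgenic heart A and 607 CPM in heart D, against 26.1 to 267 CPM in the other 6 hearts. The 7 skeletal muscle markers on the list were not analysed here. Values per heart follow the order A, B, D, E for the non-transgenic group and A, B, C, E for the transgenic group.

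Per kilobase of merged exon, the genes of the reticulum itself had the highest levels in non-transgenic hearts. Atp2a2, which encodes the SERCA2 pump, led with 2037 ± 221 CPM per kilobase (SD, n = 4) and ranked 18 of 13214 genes with a length. Pln, its inhibitor phospholamban, followed at 848 ± 182, and Hrc, the histidine-rich calcium-binding protein, at 689 ± 61.6 CPM per kilobase. The ranges of Pln and Hrc overlapped, so their order is not resolved. Casq2, the calcium buffer calsequestrin, stood at 430.4 ± 56.6, and Jph2, the junctophilin that tethers the reticulum to the tubule, at 141 ± 24.7 CPM per kilobase. Next were Trdn, the anchoring protein triadin, at 59.7 ± 14.6 and the release channel Ryr2 at 50.2 ± 4.59 CPM per kilobase, whose ranges also overlapped. The genes of the cell surface and of signalling were lowest. Slc8a1 stood at 14.7 ± 1.05, Cacna1c at 14.2 ± 2.96 and Camk2d at 9.95 ± 0.435 CPM per kilobase. Each of these overlapped its neighbour, and with the longest annotated transcript as the length the 3 came in the order Camk2d, Cacna1c, Slc8a1.

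The lumenal protein Hrc binds calcium inside the reticulum and also contacts triadin and the pump. Hrc (ENSMUSG00000038239; GRCm38 chromosome 7, 45335290 to 45338974, plus strand) had 1742, 1991, 1619 and 1722 CPM in the non-transgenic group. In the transgenic group it had 1294, 1200.2, 1306 and 1278 CPM. Every transgenic heart lay below every non-transgenic heart, and the transgenic values were close together. The mean went from 1768 ± 158 to 1269.7 ± 47.7 CPM (SD, n = 4 each), and the log2 scale gave a fall of -0.48 (SE 0.09, edgeR adjusted p = 0.0387). The direction was the same under every alternative fit with edgeR, DESeq2 or limma, but the call was not: Hrc passed in 10 of 18 such fits. The call was lost on leaving out non-transgenic heart A (edgeR adjusted p = 0.104) or E (0.0764) or transgenic heart A (0.0897), B (0.176), C (0.124) or E (0.121), and also with the title letters as a block (0.205). With a correction for transcript GC content, chosen after seeing the data, Hrc stood at -0.51 on the log2 scale (SE 0.11, edgeR adjusted p = 0.0574).

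Cardiomyocyte genes outside calcium handling were lower beside it. The summed level of 8 cardiomyocyte markers, mostly sarcomere genes, was 79415 to 93186 CPM in non-transgenic and 64164 to 68213 CPM in transgenic hearts, which did not overlap, although 0 of the 8 passed the test on its own. Taken relative to that sum in each heart, a denominator chosen after seeing the data, Hrc differed by -0.11 on the log2 scale with overlapping groups (exact permutation p = 0.143). The 10 genes were compared in this way and these p are unadjusted. In bulk tissue, fewer cells of a type and less RNA per cell cannot be told apart. Summed endothelial markers (790.2 to 874 against 761 to 795 CPM), fibroblast markers (1264 to 1765 against 1217 to 1703 CPM), smooth muscle and pericyte markers (614 to 1033 against 757 to 995 CPM) and leukocyte markers (234 to 362 against 227 to 331 CPM) overlapped between the groups. So did red blood cell markers (356 to 803 against 299 to 416 CPM), adipocyte markers (0.761 to 27.5 against 2.03 to 13.3 CPM), Schwann cell markers (4.35 to 7.53 against 4.50 to 6.79 CPM) and nuclear-retained RNAs (406 to 1007 against 393 to 829 CPM), and no marker analysed was at 0 in all libraries. Their part in the level of Hrc was not tested.

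**Figure D1:**
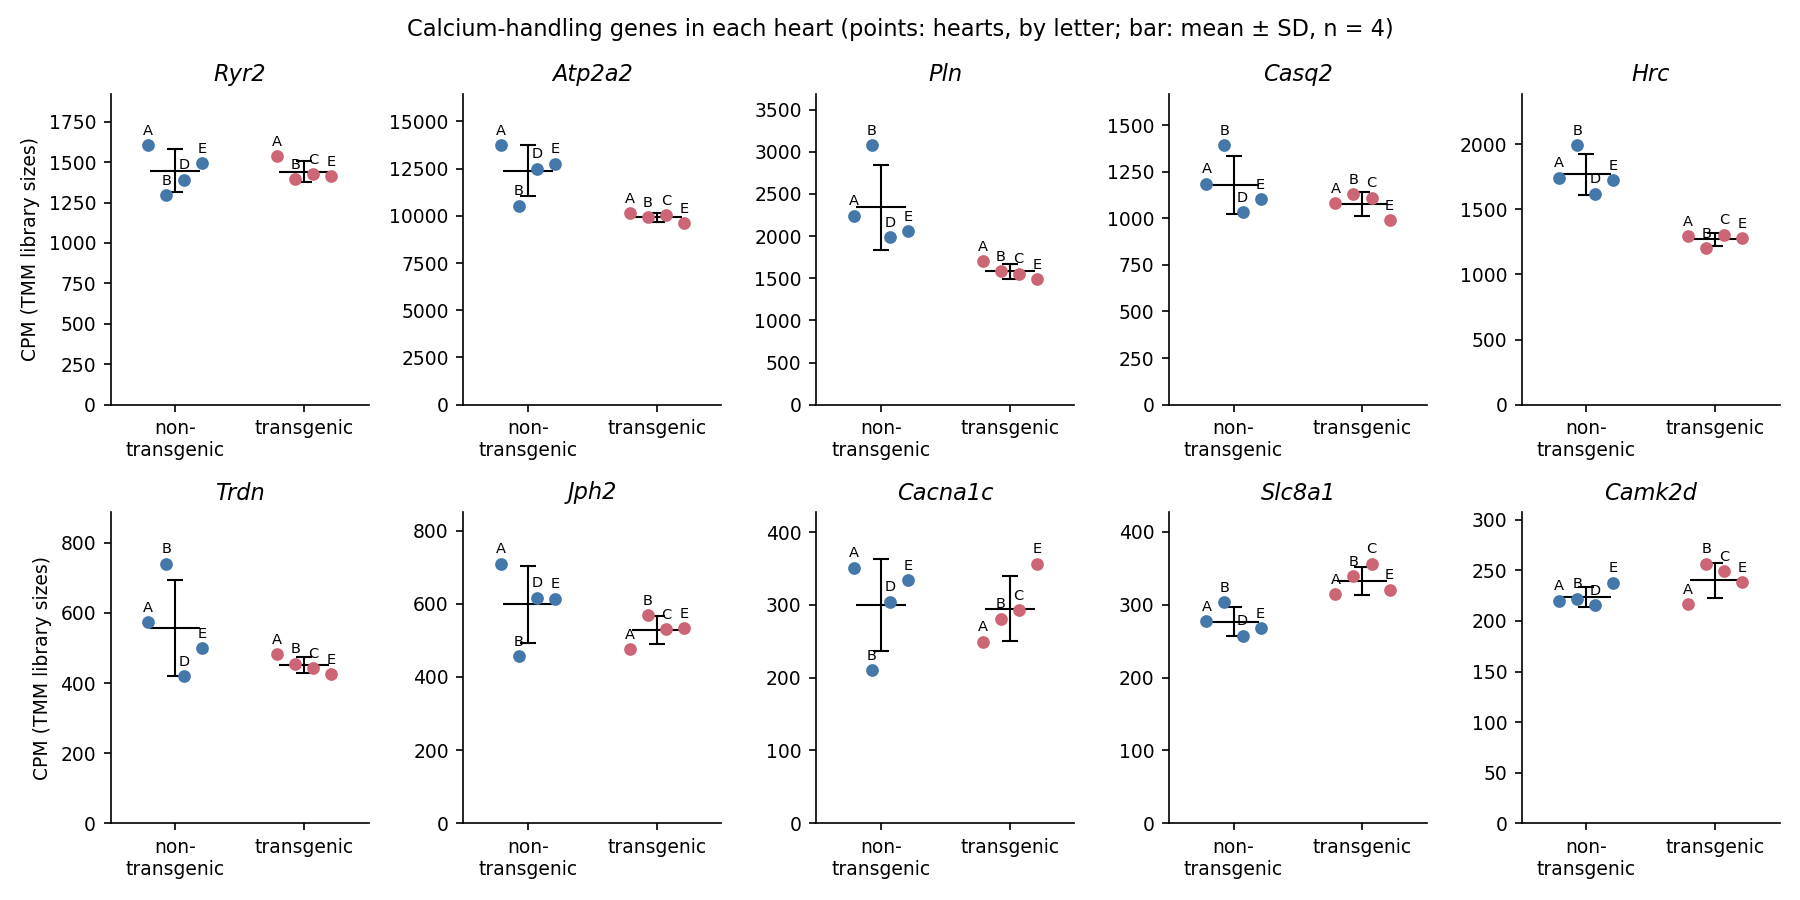
Level of each of the 10 genes in every heart, in CPM on an axis that starts at 0, with non-transgenic hearts on the left and transgenic hearts on the right of each panel. Points are hearts with their letter, and bars give the mean ± SD (n = 4). Hrc, Pln and Atp2a2 were lower and Slc8a1 was higher in every transgenic heart, and non-transgenic heart B was the lowest or highest of its group for 9 of the 10 genes.

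Phospholamban holds back the SERCA2 pump until it is phosphorylated. Pln (ENSMUSG00000038583; chromosome 10, 53337667 to 53345987, plus strand) had 2239, 3075, 1984 and 2060.2 CPM in the non-transgenic group. The transgenic group had 1699, 1586, 1552 and 1486 CPM. All transgenic hearts were below all non-transgenic hearts, and heart B stood far above the rest of its group. On the log2 scale the difference was -0.57 (SE 0.14), the largest in size of the 10 genes, yet Pln did not pass (edgeR adjusted p = 0.118). Pln passed with library totals only (edgeR adjusted p = 0.0326), with DESeq2 (adjusted p = 0.00544) and with the GC correction (edgeR adjusted p = 0.0140), which gave a log2 fold change of -0.49 (SE 0.08). Leaving out heart B gave -0.41 on the log2 scale (SE 0.08, edgeR adjusted p = 0.0552).

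The pump gene Atp2a2 (ENSMUSG00000029467; chromosome 5, 122453513 to 122502225, minus strand) returns calcium to the reticulum. It had 13736, 10534, 12502 and 12772 CPM in the non-transgenic group and 10138, 9920.3, 10036 and 9599 CPM in the transgenic group. The groups did not overlap, but non-transgenic heart B came close to the transgenic hearts. The difference was -0.32 on the log2 scale (SE 0.10, edgeR adjusted p = 0.262). Without heart B it was -0.39 (SE 0.07) and passed (edgeR adjusted p = 0.0440), as it did in DESeq2 over all hearts (adjusted p = 0.0247). Relative to the summed cardiomyocyte markers, which were lower too, Atp2a2 differed by 0.05 and Pln by -0.18 on the log2 scale, and both groups overlapped (exact permutation p = 0.943 and 0.171).

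The cardiac sodium-calcium exchanger, encoded by Slc8a1, moves calcium out of the cell across the surface membrane. Slc8a1 (ENSMUSG00000054640; chromosome 17, 81373105 to 81738377, minus strand) had 277, 304, 257 and 268 CPM in the non-transgenic group and 315, 339, 356 and 321 CPM in the transgenic group. It was the single gene of the 10 whose transgenic hearts all lay above the non-transgenic hearts, and the nearest pair of hearts differed little. With 18807 bases of merged exon it belongs, with Ryr2, Cacna1c and Camk2d, to the 231 genes of 16 kb or more and a mean of at least 10 CPM. Their median deviation from the mean of the 8 hearts on the log2 scale was -0.15, -0.09, 0.03 and 0.02 in the non-transgenic and -0.02, 0.00, 0.10 and 0.08 in the transgenic group. The part of exon length in the level of Slc8a1 was not tested. The difference was 0.27 on the log2 scale (SE 0.09, edgeR adjusted p = 0.296), and it passed in 0 of 18 alternative fits, with adjusted p from 0.0705 to 0.720. At an unadjusted p it stood at 0.0137 in edgeR. Relative to the cardiomyocyte markers the difference was 0.63 on the log2 scale (exact permutation p = 0.0286, the smallest that 4 hearts against 4 can give). The summed markers were lower in all 4 transgenic hearts, so the groups had to separate on this scale. That separation and its p are therefore no further support.

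The 250 bases before the start of Hrc, Pln and Slc8a1 are given because these genes had groups that did not overlap. RefSeq entries on GRCm38.p6 were found for 8 of the 10 genes, and Atp2a2 and Trdn had none. Capitals mark matches to CANNTG, the E-box, on either strand, which 66.2% of all 32851 such windows hold. The site of the muscle factor MEF2 (2.92% of windows) and TGATGNAA, an element of the stress factor ATF4 (3.45% of windows), were searched on both strands and had no match in these 3 windows. The windows lie at chr7:45335019-45335268 (plus strand), chr10:53337436-53337685 (plus strand) and chr17:81738388-81738637 (minus strand), each written 5′ to 3′ on the strand of its gene. RefSeq starts differ by a few bases from the GENCODE coordinates given with each gene: the Pln window ends inside the gene as GENCODE draws it, and those of Hrc and Slc8a1 stop short of it.
Hrc: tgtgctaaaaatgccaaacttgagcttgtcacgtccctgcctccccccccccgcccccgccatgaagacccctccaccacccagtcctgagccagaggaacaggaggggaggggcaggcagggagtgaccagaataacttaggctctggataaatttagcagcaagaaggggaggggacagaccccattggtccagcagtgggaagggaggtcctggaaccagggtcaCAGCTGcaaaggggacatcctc
Pln: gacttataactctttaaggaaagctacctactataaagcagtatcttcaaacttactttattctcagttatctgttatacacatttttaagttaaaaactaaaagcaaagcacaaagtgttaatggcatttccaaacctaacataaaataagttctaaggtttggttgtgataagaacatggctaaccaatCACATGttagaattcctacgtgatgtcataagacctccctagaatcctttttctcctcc
Slc8a1: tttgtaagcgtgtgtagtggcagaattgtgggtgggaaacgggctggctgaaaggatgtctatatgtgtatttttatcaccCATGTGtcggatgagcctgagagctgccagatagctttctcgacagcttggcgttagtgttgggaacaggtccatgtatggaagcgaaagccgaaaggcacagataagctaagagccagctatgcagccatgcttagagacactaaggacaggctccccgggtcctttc
Each window held 1 E-box match, and GC content was 59.6% for Hrc, 32.8% for Pln and 50.4% for Slc8a1. A match is a string of letters and not a bound site.

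The trigger and release channels differed little between the groups. Cacna1c (ENSMUSG00000051331; chromosome 6, 118587240 to 119196418, minus strand), the pore of the L-type channel, had 351, 210.2, 304 and 334 CPM in the non-transgenic group. It had 249, 281, 292 and 356 CPM in the transgenic group. The groups spanned much the same range, with heart B lowest of all. The edgeR log2 fold change of -0.03 did not pass (SE 0.17, adjusted p = 0.975), and the sign turned in 6 of 18 alternative fits. It was -0.16 without non-transgenic heart B and -0.14 without transgenic heart E.

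Ryr2 (ENSMUSG00000021313; chromosome 13, 11553102 to 12106945, minus strand), the ryanodine receptor of heart muscle, had 1603, 1297, 1392 and 1495 CPM in the non-transgenic group. It had 1536, 1394, 1424 and 1413 CPM in the transgenic group. The transgenic range lay inside the non-transgenic range. The edgeR log2 fold change of -0.01 did not pass (SE 0.09, adjusted p = 0.992). The cardiomyocyte markers were lower, so relative to them Ryr2 differed by 0.36 on the log2 scale, higher in all 4 transgenic hearts (exact permutation p = 0.0286). The summed markers separated the groups without Ryr2, so this separation and its p do not show a change in Ryr2 itself.

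Triadin and calsequestrin form the complex that links the release channel to the calcium store. Trdn (ENSMUSG00000019787; chromosome 10, 33080554 to 33476709, plus strand) had 573, 740.0, 419 and 499.9 CPM in the non-transgenic group and 482, 455, 442 and 426 CPM in the transgenic group. Heart D lay below all transgenic hearts and the other non-transgenic hearts above them (log2 fold change -0.31, SE 0.16, edgeR adjusted p = 0.546), and without heart B the log2 fold change was -0.14. Casq2 (ENSMUSG00000027861; chromosome 3, 102086415 to 102146514, plus strand) had 1184, 1391, 1034 and 1101 CPM in the non-transgenic group and 1079.9, 1129, 1109 and 988 CPM in the transgenic group. Its groups overlapped, with a log2 fold change of -0.13 (SE 0.11, edgeR adjusted p = 0.762) that became -0.04 without non-transgenic heart B and -0.20 without D. Trdn was the most variable of the 10 genes in non-transgenic hearts, with a coefficient of variation of 24.5% there and 5.29% in transgenic hearts.

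Junctophilin 2 holds the dyad together, and the delta isoform of CaM kinase II phosphorylates the release channel and phospholamban. Jph2 (ENSMUSG00000017817; chromosome 2, 163336242 to 163397993, minus strand) had 709, 456, 616 and 614 CPM in the non-transgenic group and 476, 569, 531 and 534 CPM in the transgenic group. Apart from heart B, the non-transgenic hearts were above every transgenic heart (log2 fold change -0.18, SE 0.13, edgeR adjusted p = 0.714). The value was -0.29 without heart B and -0.09 without non-transgenic heart A. Camk2d (ENSMUSG00000053819; chromosome 3, 126596302 to 126846326, plus strand) had 219.9, 222, 216 and 238 CPM in the non-transgenic group and 216, 256, 249 and 238 CPM in the transgenic group. Its groups overlapped (log2 fold change 0.10, SE 0.09, edgeR adjusted p = 0.768), and the value was 0.06 without transgenic heart B. Relative to the lower cardiomyocyte markers, Camk2d was higher in all 4 transgenic hearts by 0.46 on the log2 scale (exact permutation p = 0.0286). The summed markers separated the groups without Camk2d, so this separation and its p do not show a change in Camk2d itself.

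**Figure D2:**
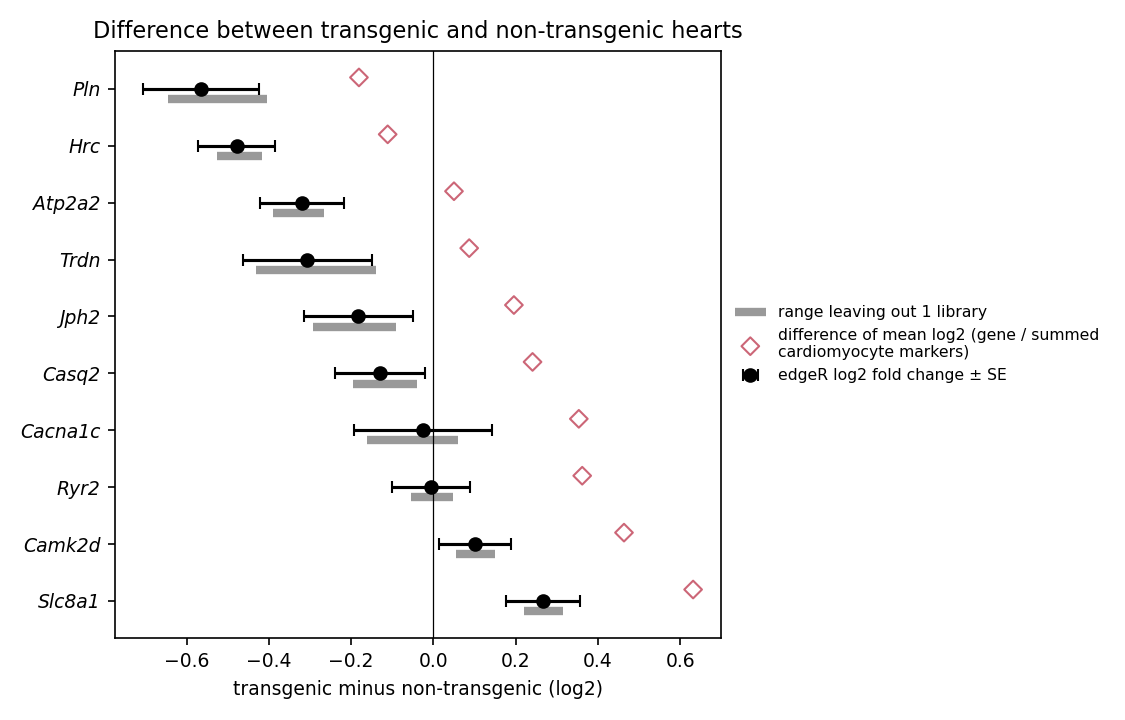
Difference between transgenic and non-transgenic hearts on the log2 scale for each of the 10 genes. Black points are edgeR log2 fold changes with their SE, grey bars the range when each library in turn was left out, and open diamonds the difference relative to the summed cardiomyocyte markers. The points run from -0.57 for Pln to 0.27 for Slc8a1, and on the marker scale all lie further to the right, from -0.18 to 0.63.

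Ratios of a pair of these genes within a library do not depend on library scaling, and 4 were compared. The ratio of Atp2a2 to Slc8a1, reuptake against extrusion, was 49.5, 34.7, 48.6 and 47.7 counts per count in the non-transgenic group. In the transgenic group it was 32.2, 29.2, 28.2 and 29.9. Atp2a2 was lower and Slc8a1 higher in all 4 transgenic hearts, so this ratio had to separate the groups. Its separation and its p are therefore no further support. All transgenic hearts were lower, by a log2 difference of -0.58 (5.48 ± 0.244 against 4.90 ± 0.082, SD, n = 4 each; exact permutation p = 0.0286, adjusted p = 0.0571 over the 4 ratios). The ratio of Hrc to Casq2, a pair of calcium-binding proteins of the lumen, was 1.47, 1.43, 1.57 and 1.56 in non-transgenic and 1.20, 1.06, 1.18 and 1.29 in transgenic hearts, in the same order of letters. Again no transgenic heart reached the non-transgenic range, with a log2 difference of -0.35 (exact permutation p = 0.0286, adjusted p = 0.0571). With 4 ratios in the family, neither passes 0.05.

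The ratio of the pump to its inhibitor did not separate the groups. Atp2a2 to Pln was 6.13, 3.43, 6.30 and 6.20 in the non-transgenic group and 5.97, 6.26, 6.46 and 6.46 in the transgenic group. Heart B apart, all hearts lay between 5.97 and 6.46, and the log2 difference of 0.23 (exact permutation p = 0.343, adjusted p = 0.457) became 0.02 without heart B. The ratio of Ryr2 to Cacna1c differed by 0.01 on the log2 scale (2.29 ± 0.222 against 2.30 ± 0.259, SD, n = 4 each; exact permutation p = 1, adjusted p = 1), and its sign turned without non-transgenic heart A, D or E or transgenic heart A.

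**Figure D3:**
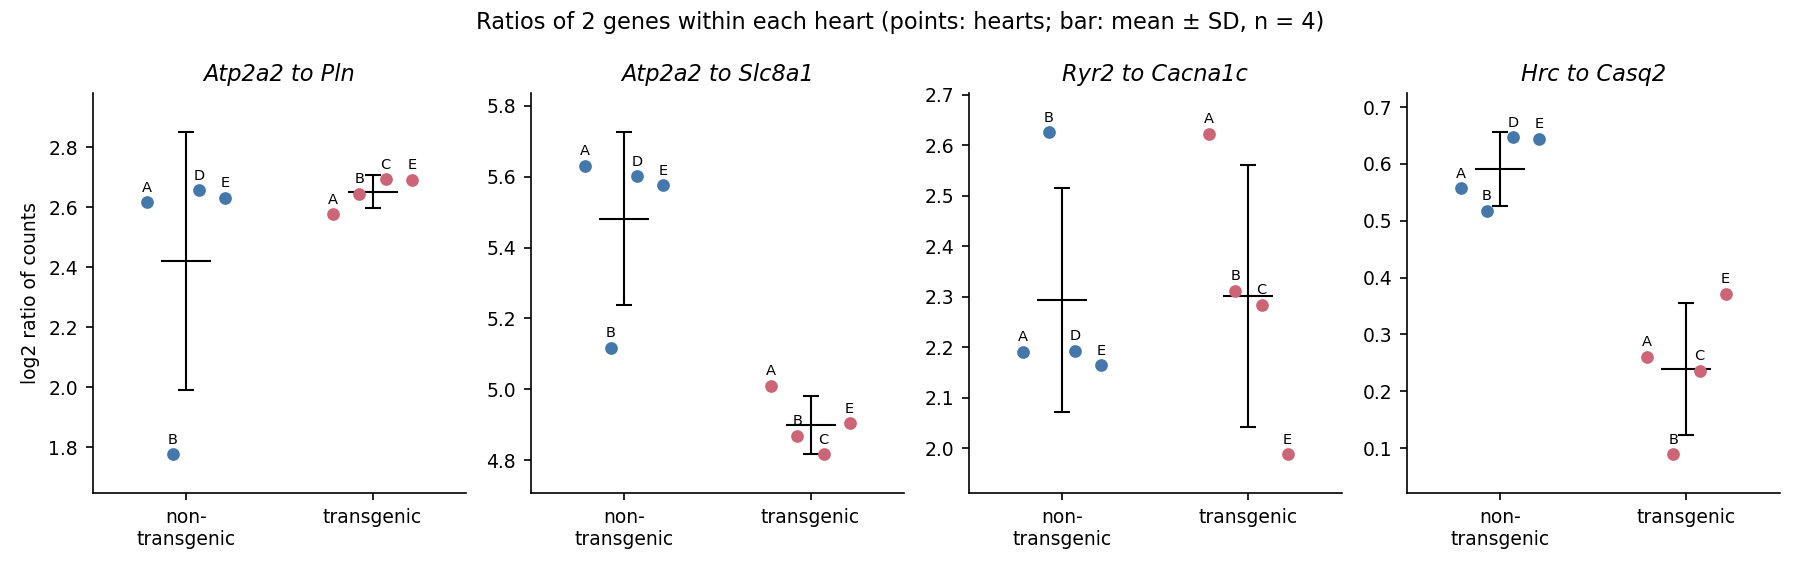
Log2 ratio of the counts of 2 genes within each heart, for 4 pairs, with points for hearts and bars for the mean ± SD (n = 4); the axes do not start at 0. Atp2a2 to Slc8a1 and Hrc to Casq2 were lower in every transgenic heart. For Atp2a2 to Pln, heart B at 1.78 stands apart from the other 7 hearts at 2.58 to 2.69.

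Non-transgenic heart B set much of the spread of these genes. It was the highest of its group for 5 of the 10 genes (Pln, Casq2, Hrc, Trdn and Slc8a1) and the lowest for 4 (Ryr2, Atp2a2, Jph2 and Cacna1c). Over all genes with a mean of at least 10 CPM, the deviation of heart B from the mean of the 8 hearts moved with the GC content of the longest transcript. Its median was 0.34 on the log2 scale for 493 genes under 40% GC and -0.37 for 1581 genes at 55% or more, and the other 7 hearts stayed between -0.08 and 0.15 in all GC classes. Among the 10 genes, Trdn (36.8% GC) and Pln (38.6% GC) deviated in heart B by 0.58 and 0.69, and Jph2 (61.8% GC) by -0.29. Hrc (53.3% GC) went the other way, with 0.41, and Cacna1c (50.3% GC) stood at -0.48. With all non-transgenic hearts, 9 of the 10 genes had a larger SD of log2 CPM in non-transgenic than in transgenic hearts, as did 77.6% of all genes, and without heart B 7 of the 10 did, beside 58.9% of all genes.

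**Figure D4:**
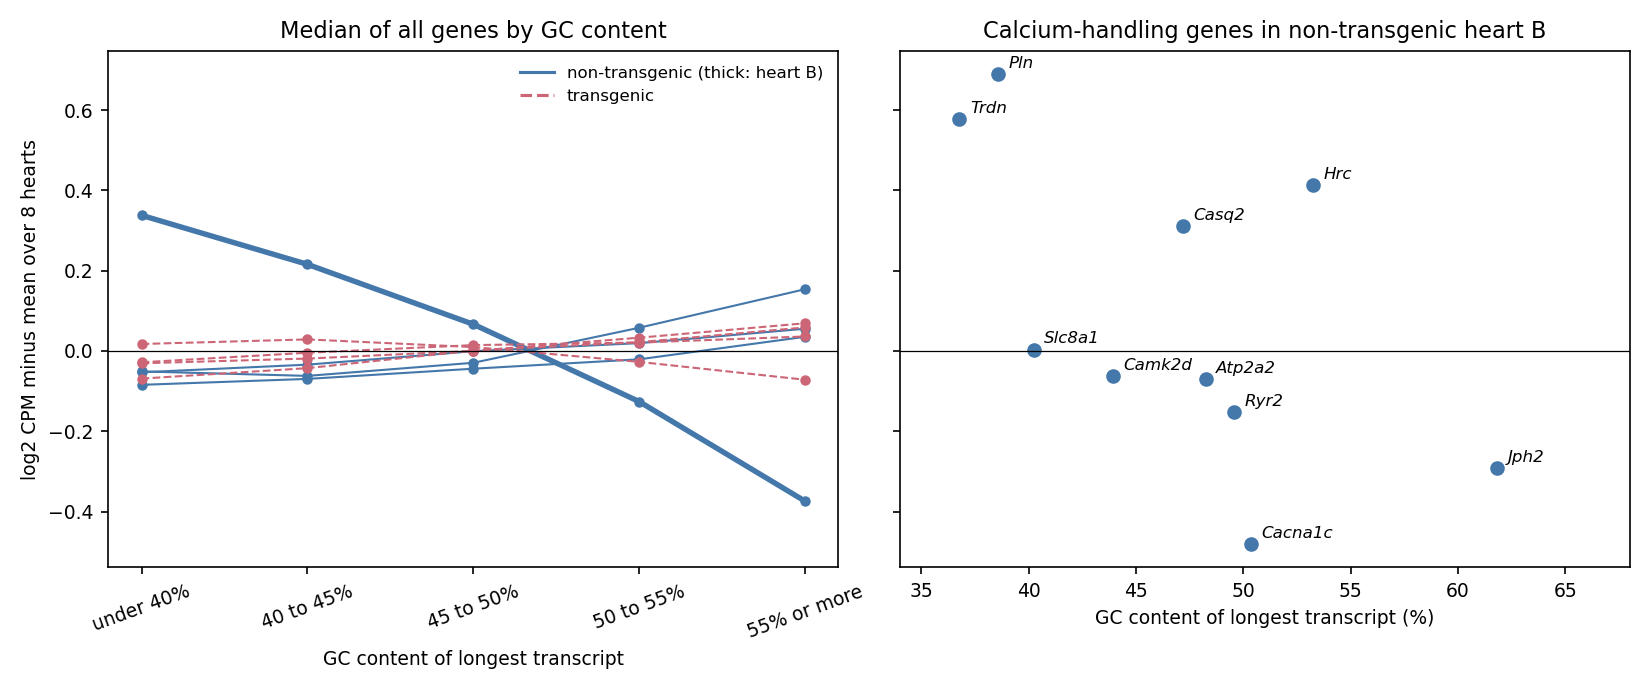
Left, median deviation of log2 CPM from the mean of 8 hearts for genes of at least 10 CPM on average, grouped by the GC content of their longest transcript, 1 line per heart, non-transgenic solid and transgenic dashed. Right, deviation of each of the 10 genes in non-transgenic heart B against its GC content in percent. Heart B, the thick line, falls from 0.34 to -0.37, and Pln and Trdn, low in GC, lie highest in it.

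The atrial markers divided the hearts in another way. Transgenic heart A, with the most atrial marker RNA, had the lowest Jph2, Cacna1c, Slc8a1 and Camk2d of its group and the highest Atp2a2, Pln, Ryr2 and Trdn. Without that heart Hrc had a log2 fold change of -0.49 and did not pass (edgeR adjusted p = 0.0897), as without each other transgenic heart. With both it and non-transgenic heart D left out, Hrc passed with a log2 fold change of -0.53 (SE 0.11, edgeR adjusted p = 0.0484). The part of atrial tissue in these values was not tested.

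The rest of the calcium machinery was followed in 8 lists of 86 other genes, of which 78 were tested. In edgeR 0 of the 78 passed the test, where 1.25% of all genes did. At an unadjusted edgeR p under 0.05, 2 of the 78 were higher and 10 lower, where 5.37% of all genes were higher and 5.38% lower. DESeq2 called 3 of them lower, where it called 1.2% of all genes lower and 3.08% in either direction: Camk2a, Cmya5 and Saraf. Their median log2 fold change was -0.03, close to the 0.01 of all genes tested.

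Pump isoforms and regulators had the lowest median of the 8 lists, -0.23 over 6 tested genes. Ppp1r3a, which targets a phosphatase to glycogen and the reticulum, had 249 ± 45.7 CPM in non-transgenic and 192 ± 15.3 CPM in transgenic hearts (SD, n = 4 each; edgeR adjusted p = 0.326), and Dhrs7c, a reticulum enzyme, had 108 ± 16.7 and 87.5 ± 11.2 CPM (0.444). Sarcolipin, encoded by Sln, is a pump inhibitor of atrial muscle and is on the atrial list too. Its level was 251 CPM in heart A and 23.5 CPM in heart B of the transgenic group and 34.4 CPM in heart D of the non-transgenic group, against 0.0256 to 3.83 CPM elsewhere. The same 3 hearts were highest for 4 of the 6 atrial markers (Myl4, Myl7, Sln and Dkk3). For the other two, Nppa and Nr2f2, transgenic heart A and heart D were highest, and a non-transgenic heart (A for Nppa, E for Nr2f2) came next, just above transgenic heart B. Of the 7 tested genes of the lumen and membrane, all had a log2 fold change below 0, from -0.23 to -0.03, where 6455 of all 13226 genes did. At an unadjusted edgeR p under 0.05, 0 of the 7 were lower, and the groups overlapped for each of them. The genes of this list with the smallest p were Calr at -0.23 (edgeR adjusted p = 0.607) and Asph, whose products include junctin, at -0.13 (0.713).

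Among 8 genes of tubule and dyad structure, Cmya5, which encodes the dyad organiser myospryn, had 858, 948, 787 and 874 CPM in the non-transgenic group and 782, 639, 649 and 678 CPM in the transgenic group. Its groups did not overlap, by a narrow margin (log2 fold change -0.34, SE 0.10, edgeR adjusted p = 0.220). Lrrc10, a cardiac leucine-rich repeat protein, had a log2 fold change of -0.34 (edgeR adjusted p = 0.363). Of 9 channel subunits and regulators, the beta subunit genes Cacnb1 and Cacnb2 went apart, at 0.44 (SE 0.14) and -0.32 (SE 0.12), with edgeR adjusted p of 0.287 and 0.348. Cacnb1 was scarce beside Cacnb2, at 7.74 ± 1.54 and 100.4 ± 14.0 CPM in non-transgenic hearts (SD, n = 4), values that are not per length.

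Release channels and their partners had a median of -0.02 over 10 genes that ran from -0.22 to 0.34, and those with the smallest p were Fkbp1a at 0.14 (edgeR adjusted p = 0.714) and the inositol trisphosphate receptor gene Itpr3 at 0.23 (0.745). Extrusion and sodium pump genes had a median of 0.07 over 8 genes, with Fxyd1, which encodes phospholemman, at -0.15 (edgeR adjusted p = 0.629). Of 8 store-operated entry genes, Saraf, which turns that entry off, was lower in all 4 transgenic hearts, at 199 to 215 CPM against 219 to 332 CPM (log2 fold change -0.43, SE 0.13, edgeR adjusted p = 0.224). Trpc1, a cation channel gene, had a log2 fold change of -0.13 (0.734). The 22 kinase and phosphatase genes had a median of -0.01. Camk2a, a minor CaM kinase II isoform in heart, had 44.9 ± 4.46 CPM in non-transgenic and 34.3 ± 2.17 CPM in transgenic hearts (SD, n = 4 in each group; edgeR adjusted p = 0.110), without overlap, and Rcan1, a calcineurin target and regulator, had 114 ± 17.9 and 146 ± 9.07 CPM, also without overlap (edgeR adjusted p = 0.302).

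**Figure D5:**
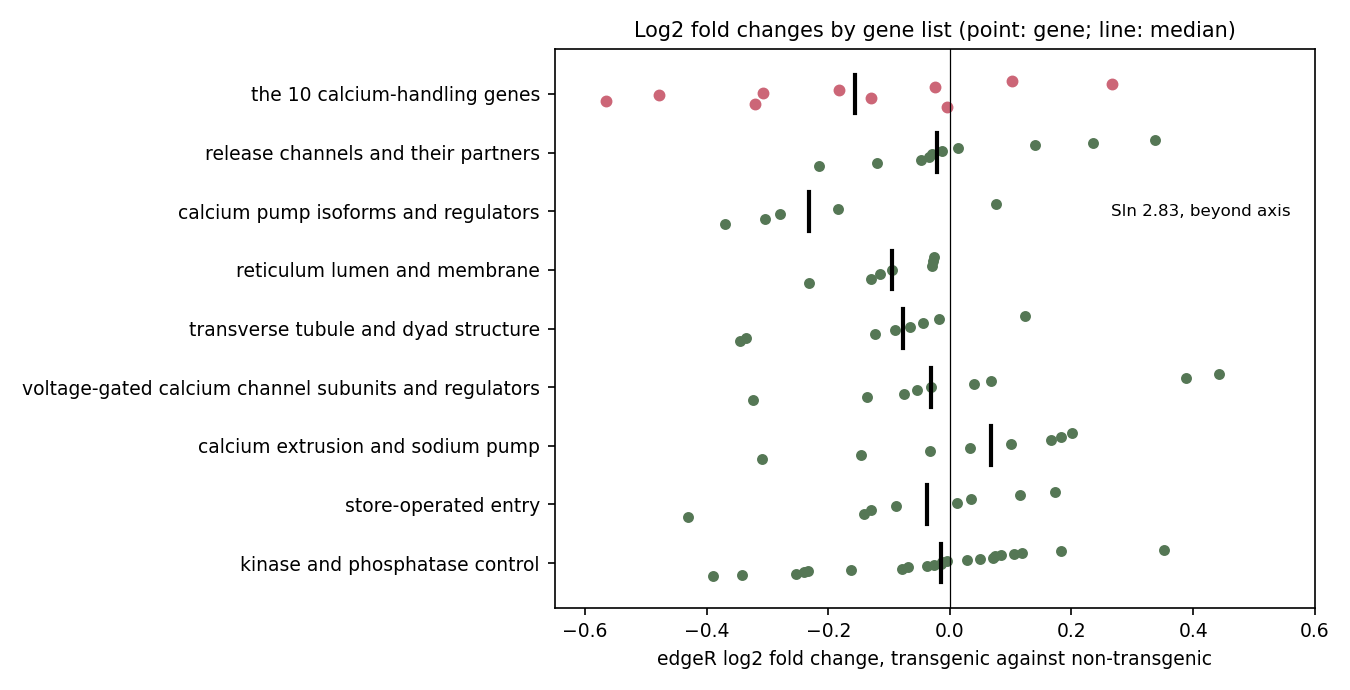
EdgeR log2 fold change of each gene, transgenic against non-transgenic, for the 10 calcium-handling genes (top row) and 8 lists of other calcium genes, with a line at each median. The 10 genes have a median of -0.16 and the lists medians from -0.23 to 0.07; Sln, at 2.83, lies beyond the axis.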

How the data were processed

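RNA sequencing of 8 mouse hearts was analysed. The authors deposited whole-number counts per Ensembl gene, 1 library each and not normalized; cutadapt 1.15 and TopHat2 with GRCm38 (mm10) are named in the submitters' processing notes, and the sources used here do not name the read counter, annotation release or use of strand, so reads of overlapping or antisense genes cannot be told apart. Each gene in the files reached a CPM of 1.003 or more in at least 2 libraries; rarer genes were not analysed here. Symbols, coordinates, exon lengths and transcripts came from GENCODE on GRCm38, and 12 identifiers had no entry.

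Counts were tested in R 4.3.3 with edgeR 4.0.16 (filterByExpr, TMM, quasi-likelihood F test, two-sided, Benjamini-Hochberg over 13226 genes, threshold 0.05). The SE is the absolute log2 fold change over the square root of F. CPM uses TMM library sizes, and log2 CPM a prior count of 2. Alternatives used other scalings and filters, DESeq2 1.42.0, limma 3.58.1, a block on title letters and left-out libraries; the GC correction (a loess per library, as an offset) and the marker denominator were added after seeing the data. Ratios were compared by exact permutation over 70 arrangements. The 10 genes and the lists were chosen with earlier results of these data known; named are the 10 genes, Fastkd1 and the 2 genes with the smallest p in each list (1 of them is not reported here), while Sln and the other atrial markers were named after their values were seen. Labels do not state separate litters, so p-values measure the spread between these hearts. No 2 libraries of a group were close enough to be repeats (the lowest chi-square over its degrees of freedom was 19.7).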

Additional observations from a re-analysis of the deposited data

Results flagged for a closer look

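In 4 cases a single heart lay far from the other 3 of its group, by the gap to its nearest neighbour as a share of the group's range; 30 groups were examined, and such a gap arises in about 1 in 20 groups of 4. For log2 CPM of Fastkd1, non-transgenic heart D was that heart, with a share of 0.874. Non-transgenic heart B was that heart for the log2 ratios of Atp2a2 to Pln (0.955), Atp2a2 to Slc8a1 (0.893) and Ryr2 to Cacna1c (0.937). The cause was not tested. The levels of the 10 genes themselves gave no such case.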

How the results depend on the processing

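Of the 10 genes, 1 passed in edgeR (Hrc), 2 with library totals only (Hrc and Pln), 3 with DESeq2 (Hrc, Pln and Atp2a2), and 0 to 2 when 1 library was left out: 2 (Hrc and Atp2a2) without non-transgenic heart B, and 0 without any 1 transgenic heart or non-transgenic heart A or E. With the GC correction 1 passed, Pln in place of Hrc. Calls over all genes shifted as well, from 133 higher and 32 lower in edgeR. They were 138 and 30 with library totals only, and 171 and 57 with the GC correction. Without non-transgenic heart A they were 110 and 10, without B 168 and 50, without D 138 and 72, and without E 115 and 27. Without transgenic heart A they were 147 and 46, without B 103 and 9, without C 112 and 14, and without E 111 and 24. With the title letter as a replicate block 0 of the 10 and 1 of the 78 other calcium genes (Sln) passed. Over all 13226 genes tested, 103 passed as higher and 21 as lower with the block. The labels do not say that the letters pair hearts. Deviations of same-letter hearts correlated at 0.30 (A), -0.08 (B) and 0.36 (E), and those of different letters at -0.44 to 0.45. With so few pairs, these values do not settle whether the letters pair hearts. Hrc had a log2 fold change of -0.53 (SE 0.14) with the block, beside -0.48 (SE 0.09) in the main fit. Of those 78 genes, DESeq2 called 3 and the GC correction 1 (Camk2a), and 0 to 1 passed without 1 library (Camk2a without non-transgenic heart B). The cause of these shifts was not tested. The log2 fold change of Ryr2 turned to 0.065 with library totals only, and ran from -0.054 to 0.048 without 1 library, above 0 without non-transgenic heart A. That of Cacna1c turned to 0.037 with library totals only, 0.0069 with the block and 0.054 without hearts D and A, and ran from -0.16 to 0.060 without 1 library, above 0 without heart A of either group or non-transgenic heart E. Relative to cardiomyocyte markers, Ryr2 (0.36), Atp2a2 (0.050), Casq2 (0.24), Trdn (0.087), Jph2 (0.20) and Cacna1c (0.35) turned sign. The log2 ratio of Ryr2 to Cacna1c ran from -0.10 to 0.12 without 1 library, and was -0.13 without hearts D and A and -0.020 with the replicate block. The other ratios kept their direction, Atp2a2 to Slc8a1 from -0.70 to -0.53, Hrc to Casq2 from -0.40 to -0.30 and Atp2a2 to Pln from 0.02 to 0.31 without 1 library, where 4 hearts against 3 allow no p below 0.0571. The 10 genes had at least 8209 counts in every library, and what limited these calls was not tested.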
